A study of Canis lupus familiaris with 6 samples.

Results

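The genes described here encode 10 proteins on the cell surface that are used to recognise stromal progenitor cells, the fibroblast-like precursors of fat: PDGFRA, PDGFRB, THY1, ENG, NT5E, CD44, DPP4, CD34, ALCAM and LEPR. They were chosen by name, with earlier results of these data known. Of the 10 genes, 9 had a row among the 23299 genes of the table, and THY1 was not analysed here. RNA was measured in canine adipose-derived stem cells, precursor cells from the fat of dogs, after 14 days of adipogenic differentiation. The study asked how bisphenol A bears on obesity in dogs. In 3 libraries the cells had received 1 µM bisphenol A (BPA), a plastic monomer that binds oestrogen receptors, and in 3 control libraries they had received the solvent DMSO. Both groups were grown for 2 days before the medium was changed to one with 1 µM of the glucocorticoid dexamethasone, 200 nM rosiglitazone, which activates PPARG, the main transcription factor of adipogenesis, and 10 µg/mL insulin. No undifferentiated cells are among these samples, and the labels name neither the donor animals nor whether replicates were separate cultures, so the p-values below measure only the spread between these libraries, which may be technical.

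Fat tissue holds a stroma of fibroblast-like cells, some of which divide, commit to the adipocyte fate and fill with lipid. PDGF receptors are tyrosine kinases on these cells that carry growth signals from secreted PDGF dimers. In mouse fat, Pdgfra marks progenitors that can become adipocytes, Pdgfrb marks progenitors around blood vessels and pericytes, and Dpp4 marks an early, uncommitted progenitor layer. NT5E (CD73), THY1 (CD90) and ENG (CD105) are the antigens whose joint presence is asked of human mesenchymal stromal cells in culture. CD34 is common on fresh fat stroma and is lost as such cells are passaged.

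Values are in TPM, the length-corrected share of each library's transcripts that a gene takes, so levels can be compared between genes. By mean level over the 6 libraries the order was DPP4 at 90.9 TPM, PDGFRA at 90.4, PDGFRB at 76.5, ALCAM at 23.1, CD44 at 22.7, ENG at 3.40, LEPR at 2.16, CD34 at 0.305 and NT5E at 0.176 TPM. The first 3 of these overlapped in their ranges over libraries, and their order changed from library to library. ALCAM and CD44 overlapped as well, as did ENG with LEPR, and CD34 with NT5E, though within every library CD34 lay above NT5E. Together the 9 genes summed to 278, 302 and 487 TPM in BPA replicates 1, 2 and 3, against 234, 311 and 246 TPM in control replicates 1, 2 and 3. The sum was highest in BPA replicate 3, where PDGFRB alone made up 42.3% of it, and the other libraries of both groups overlapped.

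**Figure D1:**
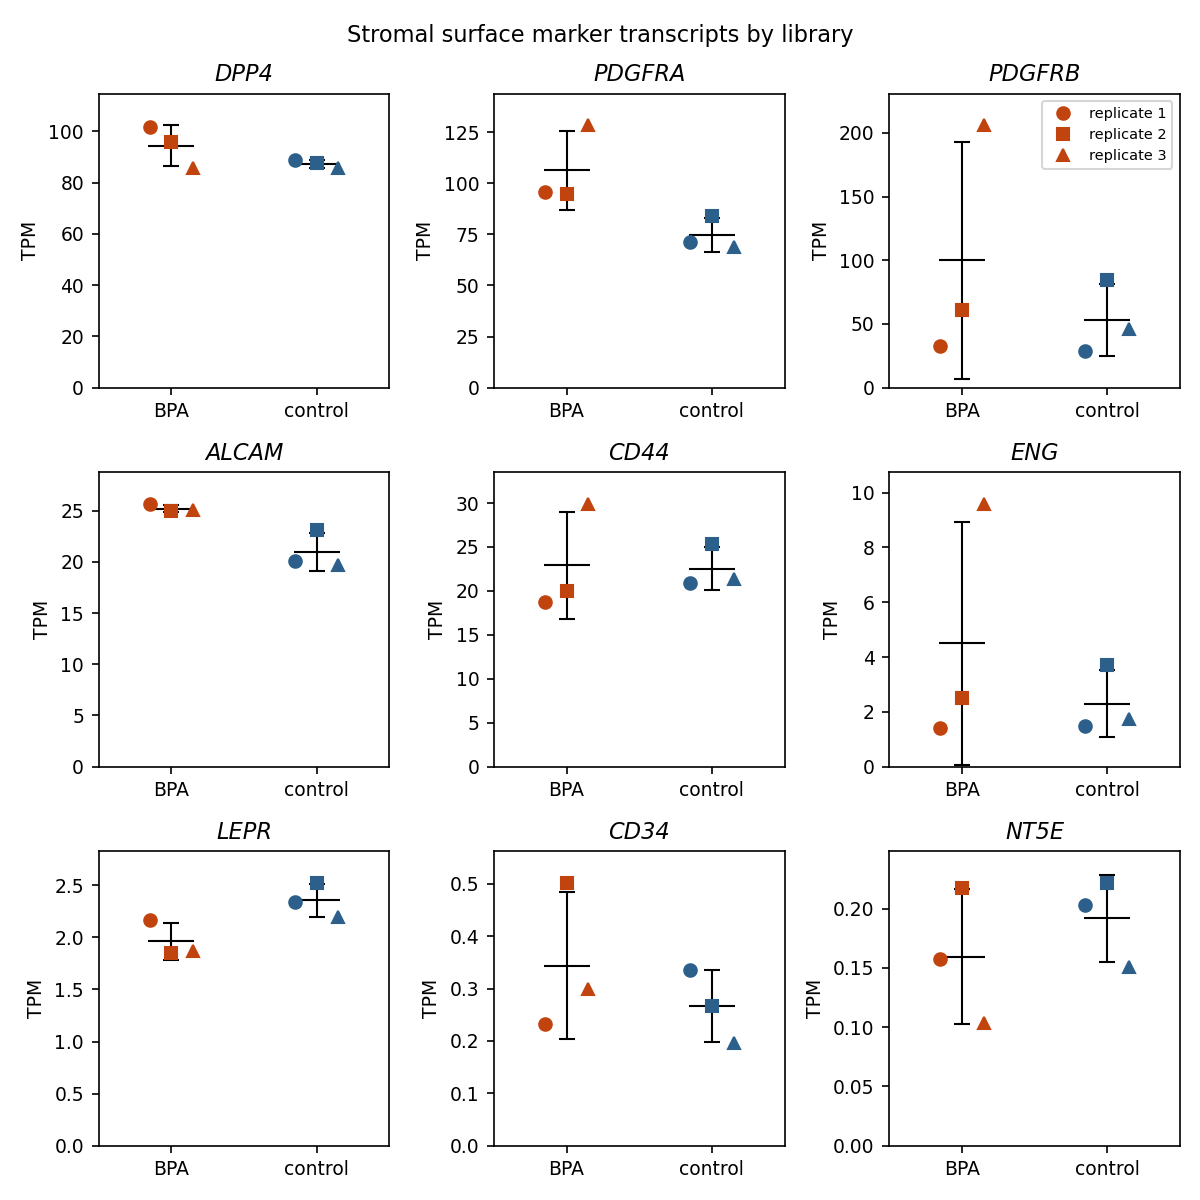
Transcript level in TPM (vertical axes, each with its own scale) of the 9 measured genes in the 3 BPA and 3 control libraries; points are libraries, horizontal lines are means and bars are SD (n = 3). PDGFRA and ALCAM lay higher in every BPA library than in any control library and LEPR lower, while PDGFRB and ENG were set apart by BPA replicate 3.

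BPA was compared with control for the 12277 genes whose log2(TPM + 1) averaged 1 or more, which included 7 of the 10 genes: DPP4, PDGFRA, PDGFRB, ALCAM, CD44, ENG and LEPR. CD34 and NT5E lay under this minimum. By limma with Benjamini-Hochberg adjustment over all tested genes, 0 genes passed an adjusted p of 0.05 (0% of tested genes), so 0 of the 7 did. At an unadjusted p under 0.05 there were 2 of the 7, PDGFRA and ALCAM, both higher with BPA, against 3.58% of all tested genes in either direction and 1.87% higher and 1.70% lower. The BPA and control libraries did not overlap for 3 of the 7, PDGFRA and ALCAM above and LEPR below, against 9.37% of all tested genes (5.38% above and 3.98% below). The median log2 change of the 7 was 0.26, with 5 above 0, beside a median of 0.03 and 56.6% above 0 over all tested genes. BPA replicate 3 stood apart from the other libraries. On the first principal component, which took 79.8% of the variance, it scored 61.1 and the others lay between -29.9 and 11.3. It held the highest value of 4 of the 7 genes, PDGFRA, PDGFRB, ENG and CD44, against 38.9% of all tested genes. Without BPA replicate 3 the unadjusted count was 3, with DPP4 added, against 5.57% of all tested genes, and the median of the 7 was -0.11. The unadjusted count was 1, PDGFRA, without BPA replicate 1 or BPA replicate 2 (7.73% and 2.22% of all tested genes), and 0 without control replicate 1 or control replicate 3 (1.54% and 1.43%).

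**Figure D2:**
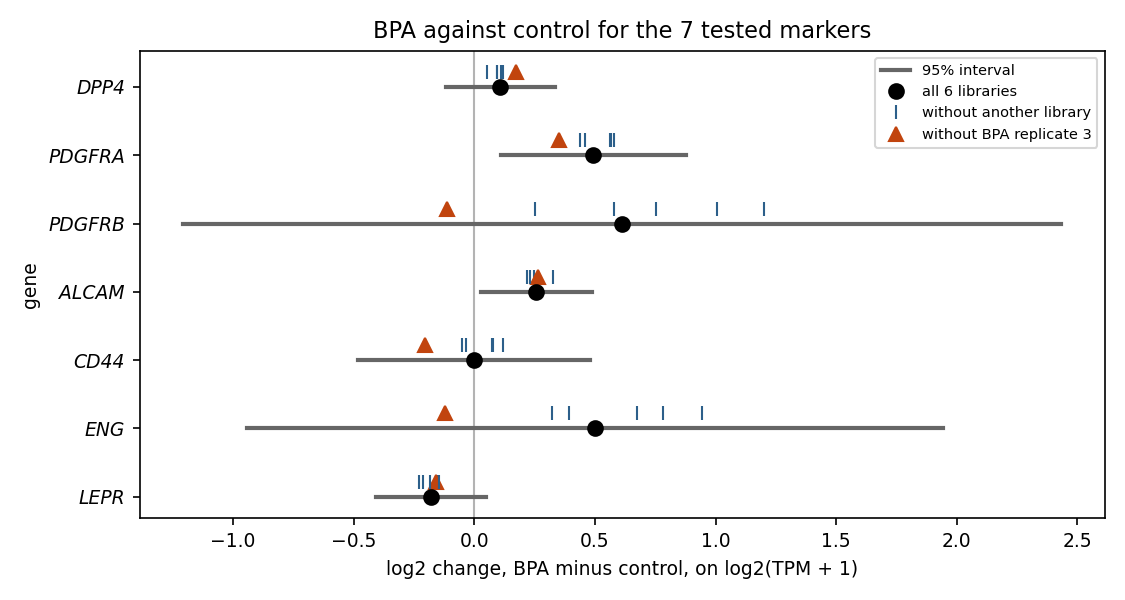
Log2 change of BPA minus control (horizontal axis, log2(TPM + 1) scale) for the 7 tested genes; black points use all 6 libraries, grey bars are 95% intervals, blue ticks leave out 1 library and red triangles leave out BPA replicate 3. The intervals of PDGFRA and ALCAM lay above 0, and without BPA replicate 3 PDGFRB and ENG moved to -0.11 and -0.12.

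The PDGF receptors came first among the members by role. PDGFRA, the alpha receptor, had 95.4, 94.7 and 128 TPM in BPA replicates 1, 2 and 3, against 71.1, 83.9 and 69.0 TPM in control replicates 1, 2 and 3. Every BPA library lay above every control library, and in each group the highest value came from the library with that group's highest first component score. The log2 change was 0.49 (SE 0.16, 95% interval 0.11 to 0.88; unadjusted p = 0.0199 and adjusted p = 0.901 by limma). It lay between 0.35 and 0.58 when any 1 library was left out. By limma the unadjusted p was 0.0647 when control replicate 1 was left out and 0.0700 when control replicate 3 was. With both BPA replicate 3 and control replicate 2 left out, a choice made after seeing the data, the log2 change was 0.44 (SE 0.07). Adipocyte markers also lay above control: of 10 named, 9 were tested and 9 lay above control, 5 of them without overlap between groups (ADIPOQ, CIDEC, PCK1, PLIN1 and FABP4). Over all tested genes, 56.6% lay above control and 5.38% did so without overlap. The hormone gene ADIPOQ had 32.3, 40.4 and 26.2 TPM in BPA replicates 1, 2 and 3, against 9.47, 14.7 and 7.99 TPM in control replicates 1, 2 and 3. CIDEC, a lipid droplet protein, had 6.84, 8.01 and 5.11 TPM in the BPA replicates, against 2.09, 2.64 and 1.78 TPM in the control replicates. Among BPA libraries ADIPOQ and CIDEC were highest in replicate 2 and PDGFRA in replicate 3. Of the 9 tested adipocyte markers 4 (44.4%) were highest in BPA replicate 3, near the share of 38.9% over all tested genes. PLIN1 was among them, at 3.03, 5.99 and 8.03 TPM in BPA replicates 1, 2 and 3. The log2 changes were 1.33 (SE 0.22) for PCK1 and 1.35 (SE 0.40) for PLIN1, each with an adjusted p of 0.901 by limma. The markers' summed level was 543 to 778 TPM in BPA libraries, against 449 to 577 TPM in control libraries, and their part in the PDGFRA difference was not tested. In a culture of mixed cells, more cells that carry a transcript and more of it per cell cannot be told apart.

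PDGFRB, the beta receptor, had 32.5, 61.1 and 206 TPM in BPA replicates 1, 2 and 3, against 28.9, 84.4 and 46.3 TPM in control replicates 1, 2 and 3. The groups overlapped, and a single library, BPA replicate 3, held a level 6.34 times that of BPA replicate 1. On the log2 scale the change was 0.61 (SE 0.74, 95% interval -1.21 to 2.43; adjusted p = 0.901 by limma), and 99.1% of tested genes had a smaller SE. Without BPA replicate 3 it was -0.11 and without BPA replicate 1 it was 1.20. PDGFRB is also a pericyte gene, and some mural markers, though not all, were highest in the same library. NOTCH3, a Notch receptor of mural cells, had 5.72, 10.1 and 54.4 TPM in BPA replicates 1, 2 and 3, against 5.39, 20.5 and 9.52 TPM in control replicates 1, 2 and 3. CSPG4 (NG2), a pericyte proteoglycan, had 6.61, 11.2 and 58.5 TPM in the BPA replicates, against 4.76, 19.98 and 8.51 TPM in the control replicates. Of the 11 mural markers named 9 had a row, and 6 were tested, 3 above and 3 below control. NOTCH3, CSPG4, MCAM and ACTA2 peaked in BPA replicate 3, as did 38.9% of all tested genes, and CNN1 and TAGLN did not. CNN1, a calponin of smooth muscle, had 176, 196 and 224 TPM in the BPA replicates, against 227, 248 and 254 TPM in the control replicates, lower without overlap (log2 change -0.30, SE 0.12; adjusted p = 0.901 by limma). TAGLN, an actin-binding protein of smooth muscle, peaked in control replicate 2 and averaged 7635 ± 699 TPM in BPA libraries and 8300 ± 440 TPM in control libraries. MYH11, KCNJ8 and ABCC9 were under 1 TPM in all libraries. CNN1 alone of the 6 was without overlap, against 9.37% of all tested genes. Without BPA replicate 3, 0 of the 6 lay above control. The list summed to 8567 to 10818 TPM in BPA libraries and 9842 to 11112 TPM in control libraries. Its part in the PDGFRB values was not tested.

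The balance of the receptors differed from library to library. PDGFRA was 2.94, 1.55 and 0.623 times PDGFRB in BPA replicates 1, 2 and 3, against 2.46, 0.995 and 1.49 times in control replicates 1, 2 and 3. The alpha transcript thus exceeded the beta transcript in 2 of 3 libraries of each group. The lowest ratio was in BPA replicate 3, and the ranges of the groups overlapped.

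**Figure D3:**
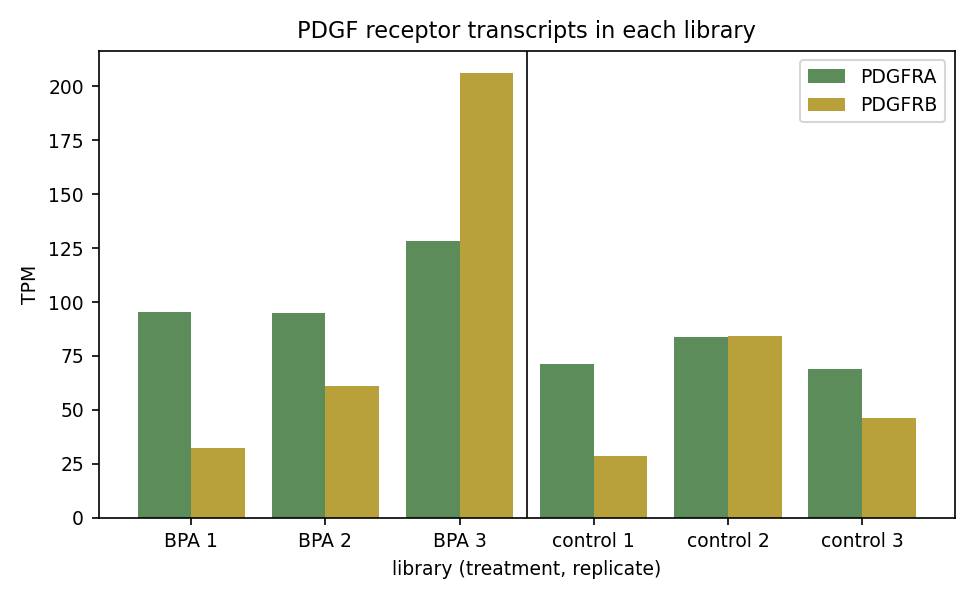
Level in TPM (vertical axis) of PDGFRA and PDGFRB in each BPA and control library. PDGFRA stayed between 69.0 and 128 TPM, while PDGFRB spanned 28.9 to 206 TPM and exceeded PDGFRA most in BPA replicate 3.

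The PDGF ligand genes did not separate the groups. Of 5 genes (4 ligands and the receptor-like PDGFRL) 4 were tested, 2 above and 2 below control, and the median log2 change was 0.02 (-0.02 without BPA replicate 3 or without control replicate 3). PDGFD, a ligand that acts mainly on the beta receptor, averaged 29.1 ± 4.02 TPM in BPA libraries and 26.2 ± 0.26 TPM in control libraries (SD, n = 3 each). PDGFA, a ligand of the alpha receptor, averaged 16.6 ± 4.73 TPM in BPA libraries and 18.9 ± 2.08 TPM in control libraries. PDGFB was at most 0.0636 TPM in any library. The dog assembly UU_Cfam_GSD_1.0 was used here only for the names, order and overlap of genes. In it each receptor gene lies beside a related receptor kinase gene, PDGFRA beside KIT and PDGFRB beside CSF1R. KIT was at or near 0 TPM in all libraries. CSF1R averaged 2.03 ± 0.32 TPM in BPA libraries and 2.45 ± 0.15 TPM in control libraries, lower without overlap (log2 change -0.19, SE 0.11; adjusted p = 0.901 by limma).

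ENG (endoglin, CD105), a co-receptor that binds BMP9 and TGF-beta family ligands, had the pattern of PDGFRB at a far lower level. It had 1.42, 2.51 and 9.59 TPM in BPA replicates 1, 2 and 3, against 1.48, 3.70 and 1.73 TPM in control replicates 1, 2 and 3. BPA replicate 3 was the highest library and BPA replicate 1 the lowest, so the BPA range enclosed the control range. This gave a log2 change of 0.50 (SE 0.58, 95% interval -0.94 to 1.94; adjusted p = 0.901 by limma), and -0.12 without BPA replicate 3. The gene overlaps the gene FPGS in UU_Cfam_GSD_1.0, and whether reads were counted by strand is not given in the sources used here. FPGS had 5.40, 8.34 and 15.5 TPM in the BPA replicates and 6.33, 9.20 and 7.36 TPM in the control replicates. It was highest in BPA replicate 3, as were 38.9% of all tested genes. Whether reads of FPGS bear on the ENG values was not tested.

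Receptors and targets around endoglin were measured as well. Of 11 genes named 8 were tested, with 5 above and 3 below control, a median log2 change of 0.05 and 0 past an adjusted p of 0.05. The median was -0.03 without BPA replicate 1 and 0.18 without BPA replicate 3. At an unadjusted p under 0.05 there were 3 higher and 0 lower, against 1.87% and 1.70% of all tested genes. Without overlap there were 3 higher and 1 lower, against 5.38% and 3.98% of all tested genes. TGFBR3 (betaglycan), the co-receptor related to endoglin, had 45.7, 44.8 and 52.9 TPM in BPA replicates 1, 2 and 3, against 35.8, 40.8 and 35.3 TPM in control replicates 1, 2 and 3. Its groups did not overlap (log2 change 0.35, SE 0.11). TGFBR2, the type II receptor that binds TGF-beta, had 38.0, 38.4 and 36.8 TPM in the BPA replicates, against 32.3, 30.9 and 32.4 TPM in the control replicates (log2 change 0.24, SE 0.08). TGFBR1, its type I partner, was lower without overlap, at 34.9 ± 6.64 TPM in BPA libraries and 44.2 ± 1.86 TPM in control libraries (log2 change -0.35, SE 0.15). ID1, a target of BMP signalling, averaged 244 ± 11.8 TPM in BPA libraries and 204 ± 14.2 TPM in control libraries, higher without overlap (log2 change 0.26, SE 0.09). Each of these 4 had an adjusted p of 0.901 by limma. ACVRL1 (ALK1), the type I receptor that signals with endoglin, was under the expression minimum, at 0.495 to 1.13 TPM with BPA and 0.590 to 0.798 TPM in control.

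DPP4 (CD26), a surface peptidase that trims chemokines and incretins, was the most abundant of the 9 genes in 5 of 6 libraries. It had 102, 96.0 and 85.7 TPM in BPA replicates 1, 2 and 3, against 88.8, 87.6 and 85.8 TPM in control replicates 1, 2 and 3. BPA replicate 3 was the lowest of all, so the groups overlapped, and the highest value was only 1.18 times the lowest. Its log2 change was 0.11 (SE 0.09, 95% interval -0.12 to 0.33; adjusted p = 0.901 by limma). It was 0.17 without BPA replicate 3 (unadjusted p = 0.0399 by limma), 0.05 without BPA replicate 1 and 0.02 after median centring (unadjusted p = 0.592 and 0.885 by limma). Of 7 genes of its family and partners 6 were tested, with 5 above control, against 56.6% of all tested genes. Their median was 0.13, and 0.03 without BPA replicate 3. DPP7 averaged 278 ± 62.5 TPM in BPA libraries and 234 ± 21.9 TPM in control libraries. The related protease FAP averaged 33.5 ± 6.10 TPM in BPA libraries and 35.7 ± 1.93 TPM in control libraries. CXCL12, a chemokine that DPP4 inactivates, had 34.6, 32.3 and 38.8 TPM in the BPA replicates, against 29.3, 29.1 and 23.7 TPM in the control replicates (log2 change 0.36, SE 0.12; unadjusted p = 0.0290 and adjusted p = 0.901 by limma).

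Among the adhesion molecules, ALCAM (CD166), an immunoglobulin-family protein that binds itself and CD6, had 25.6, 24.9 and 25.0 TPM in BPA replicates 1, 2 and 3, against 20.1, 23.1 and 19.7 TPM in control replicates 1, 2 and 3. No control library reached the lowest BPA library, and the BPA libraries had an SD of 0.39 TPM. The log2 change was 0.26 (SE 0.09, 95% interval 0.03 to 0.49; unadjusted p = 0.0341 and adjusted p = 0.901 by limma). It stayed between 0.22 and 0.32 with any 1 library left out, and was 0.17 after median centring or quantile normalization (unadjusted p = 0.199 and 0.172 by limma). CD34, a sialomucin, had 0.232, 0.501 and 0.298 TPM in the BPA replicates, against 0.336, 0.267 and 0.197 TPM in the control replicates. These levels overlapped and were too low to be tested, and the read depth behind them is unknown. Of 12 adhesion partners of CD34, THY1 and ALCAM 4 were tested, all 4 above control with a median of 0.12, against 56.6% of all tested genes above. Without BPA replicate 3, 1 of 4 lay above, with a median of -0.03. SDC4 averaged 104 ± 13.8 TPM in BPA libraries and 94.6 ± 9.58 TPM in control libraries, and the integrin subunit ITGB3 averaged 6.10 ± 1.30 TPM in BPA libraries and 5.54 ± 0.53 TPM in control libraries. The integrin subunit ITGAV averaged 219 ± 13.4 TPM in BPA libraries and 214 ± 11.0 TPM in control libraries, and PODXL, a relative of CD34, was at most 0.150 TPM.

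CD44, the main hyaluronan receptor, had 18.8, 20.03 and 29.9 TPM in BPA replicates 1, 2 and 3, against 20.9, 25.3 and 21.4 TPM in control replicates 1, 2 and 3. BPA replicates 1 and 2 lay below all control libraries and BPA replicate 3 above them. The log2 change was -0.0029 (SE 0.20, 95% interval -0.48 to 0.48; adjusted p = 0.998 by limma), and -0.20 without BPA replicate 3. Around it, 9 of 15 genes of hyaluronan handling were tested, with 7 above control and a median of 0.06, against 56.6% of all tested genes above. Without BPA replicate 3 there were 2 above, with a median of -0.009. The hyaluronidase HYAL2 had 15.9, 20.7 and 29.4 TPM in the BPA replicates, against 19, 20.5 and 15.7 TPM in the control replicates. The hyaluronan-binding TNFAIP6 averaged 4.35 ± 0.80 TPM in BPA libraries and 5.43 ± 0.53 TPM in control libraries. CEMIP, which breaks hyaluronan down, had 23.9, 40.7 and 145 TPM in the BPA replicates, against 20.7, 55.5 and 31.8 TPM in the control replicates. Its peak, like that of CD44, was in BPA replicate 3. The synthase HAS2 stayed under 1 TPM in all libraries.

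LEPR, the leptin receptor, which marks stromal cells of bone marrow and some fat progenitors in mice, had 2.17, 1.85 and 1.87 TPM in BPA replicates 1, 2 and 3, against 2.34, 2.52 and 2.20 TPM in control replicates 1, 2 and 3. All BPA libraries lay below all control libraries, by a narrow gap between BPA replicate 1 and control replicate 3. The log2 change was -0.18 (SE 0.09, 95% interval -0.41 to 0.05; unadjusted p = 0.0995 and adjusted p = 0.901 by limma). Its neighbour LEPROT, which in humans shares a promoter with LEPR, averaged 104 ± 0.36 TPM in BPA libraries and 103 ± 2.64 TPM in control libraries. The ligand gene LEP was also lower without overlap, at 145, 143 and 125 TPM in the BPA replicates, against 163, 157 and 167 TPM in the control replicates (log2 change -0.24, SE 0.09). The 8 genes of leptin signalling were all tested, 5 above and 3 below control with a median of 0.05 (0.01 without BPA replicate 3). LEP was the 1 without overlap, against 9.37% of all tested genes. STAT3, which LEPR activates, averaged 37.2 ± 10.7 TPM in BPA libraries and 29.5 ± 4.69 TPM in control libraries.

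NT5E (CD73), the enzyme that turns AMP into adenosine, had 0.158, 0.217 and 0.104 TPM in BPA replicates 1, 2 and 3, against 0.203, 0.222 and 0.151 TPM in control replicates 1, 2 and 3. It was the least abundant of the 9 genes in every library, and the groups overlapped. Of 11 genes for nucleotide breakdown and adenosine signalling 5 were tested, 1 above and 4 below control, with a median of -0.04. Over all tested genes 56.6% lay above. Of the 5, 1 was without overlap, against 9.37% of all tested genes. ENTPD1 (CD39), which makes the AMP that NT5E uses, was at most 0.0142 TPM. The adenosine receptor ADORA2B averaged 13.8 ± 1.92 TPM in BPA libraries and 15.7 ± 1.26 TPM in control libraries. Adenosine deaminase (ADA), which binds DPP4 at the cell surface in humans, had 25.7, 27.1 and 21.9 TPM in the BPA replicates, against 29.7, 28.4 and 30.8 TPM in the control replicates, without overlap (log2 change -0.25, SE 0.11; adjusted p = 0.901 by limma).

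**Figure D4:**
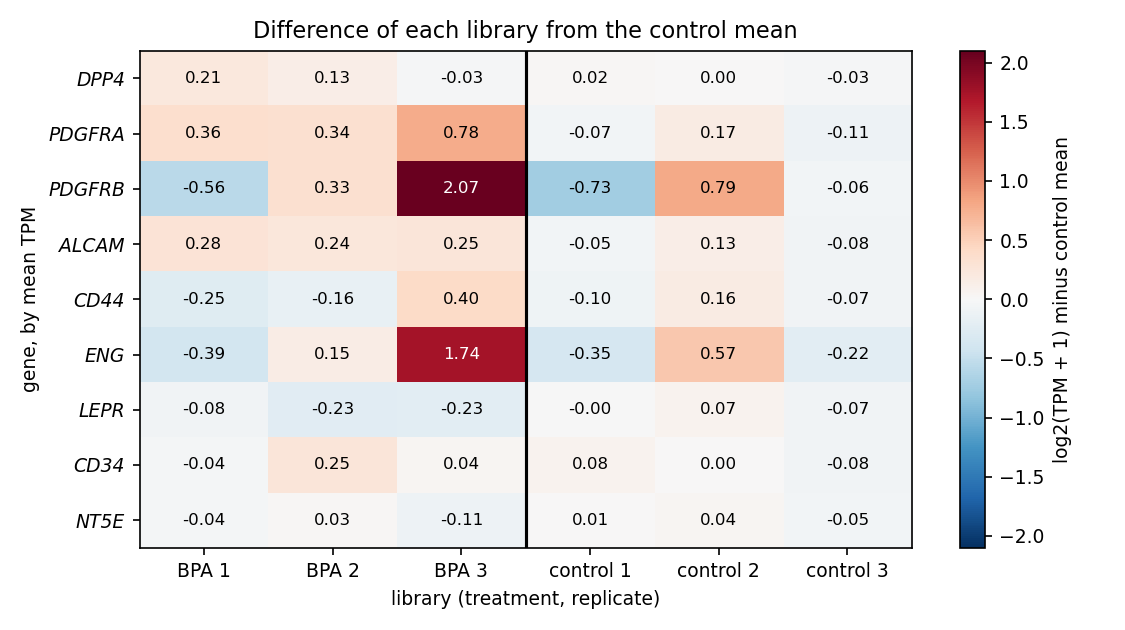
Difference of each library (columns) from the control mean on the log2(TPM + 1) scale (colour and printed value) for the 9 genes (rows, by mean level). PDGFRB and ENG differed most, at 2.07 and 1.74 in BPA replicate 3, while PDGFRA and ALCAM were above the control mean in all BPA libraries.

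The tested genes varied to different extents. The highest library was 7.14 times the lowest for PDGFRB, 6.74 times for ENG, 1.86 times for PDGFRA, 1.59 times for CD44, 1.36 times for LEPR, 1.30 times for ALCAM and 1.18 times for DPP4. It was 2.55 times for CD34 and 2.14 times for NT5E, which were not tested. For the 4 tested genes of widest range on the log2(TPM + 1) scale, the tested genes most alike in pattern were sought. Genes named only by a LOC number, which stands in for a symbol, were left out of the search. Likeness was the root mean square difference of centred log2(TPM + 1) values over the 6 libraries, a description of these libraries. COL6A1, a collagen VI chain, came nearest to PDGFRB, with a difference of 0.03 against a PDGFRB range of 2.79. COL6A1 had 535, 987 and 3165 TPM in BPA replicates 1, 2 and 3, against 472, 1337 and 767 TPM in control replicates 1, 2 and 3. ATXN7L3B followed at 0.04. Nearest to ENG were DPP9 and PANX2, at 0.04 and 0.05. Nearest to PDGFRA were CLDN1 and DUSP6, at 0.03 and 0.04. DUSP6, a phosphatase of ERK, averaged 61.4 ± 9.03 TPM in BPA libraries and 44.1 ± 5.15 TPM in control libraries. GFPT2 and MARS1 lay nearest to CD44, at 0.02 and 0.03.

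Proteases known to release such proteins from the surface were measured too. Of 4 genes (3 sheddases and the inhibitor TIMP3) 3 were tested, 2 above control. ADAM10, which cleaves CD44, averaged 11.5 ± 0.81 TPM in BPA libraries and 10.4 ± 0.25 TPM in control libraries, without overlap (log2 change 0.14, SE 0.09). MMP14, which sheds endoglin, had 477, 619 and 1132 TPM in the BPA replicates, against 418, 668 and 467 TPM in the control replicates, highest in BPA replicate 3.

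The labelled cell type was set against further stromal antigens and against markers of other cells. Of 17 other antigens of mesenchymal stromal cells 15 were tested, 10 above control (56.6% of all tested genes) with a median of 0.17. Of the 15, 0 were without overlap (9.37% of all tested genes) and 8 peaked in BPA replicate 3 (38.9% of all tested genes). Without that library 5 of 15 lay above control and the median was -0.08, and without control replicate 1 the median was 0.05. NGFR was at most 0.0151 TPM, and CD82 was also under 1 TPM in all libraries. CD151 averaged 689 ± 219 TPM in BPA libraries and 573 ± 97.1 TPM in control libraries, and VCAM1 averaged 18.9 ± 1.68 TPM in BPA libraries and 16.7 ± 0.94 TPM in control libraries. The integrin ITGB1 (CD29) averaged 1202 ± 178 TPM in BPA libraries and 1274 ± 37.1 TPM in control libraries. CD248 (endosialin) had 386, 824 and 2932 TPM in BPA replicates 1, 2 and 3, against 371, 1197 and 607 TPM in control replicates 1, 2 and 3. Among antigens that should be absent from such cells, PTPRC (CD45) was at most 0.00656 TPM, ITGAM at most 0.494 and DLA-DRA at most 0.427 TPM. CD14 was present, at 25.6, 34.5 and 41.5 TPM in the BPA replicates, against 23.2, 29.7 and 20.2 TPM in the control replicates. Leukocyte markers summed to 5.13 to 10.3 TPM with BPA and 7.52 to 9.81 TPM in control, and 4 of the 6 with a row were under 1 TPM in all libraries. CD68, a macrophage marker, averaged 4.76 ± 2.91 TPM in BPA libraries and 5.77 ± 0.98 TPM in control libraries. Endothelial markers summed to 2.09 to 2.20 TPM with BPA and 2.03 to 2.28 TPM in control, with PECAM1 at most 0.00795 TPM and ERG the 1 tested, at 1.43 ± 0.17 TPM in BPA libraries and 1.59 ± 0.02 TPM in control libraries. Of 7 proliferation markers, all tested, 4 lay above control with a median of 0.07 (-0.02 without BPA replicate 1), and TOP2A averaged 16.9 ± 1.07 TPM in BPA libraries and 14.3 ± 0.49 TPM in control libraries. MCM2 averaged 7.14 ± 1.75 TPM in BPA libraries and 5.60 ± 0.89 TPM in control libraries.

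Mouse fat stroma has been divided into populations by such markers, and genes of each were read here in the dog. Of 7 interstitial progenitor genes, which accompany Dpp4, all were tested, 4 above and 3 below control with a median of 0.02, but 1 above and a median of -0.20 without BPA replicate 3 and 2 above with a median of -0.02 without control replicate 1. CD55, a complement regulator, had 1.16, 1.69 and 2.35 TPM in BPA replicates 1, 2 and 3, against 0.695, 1.05 and 0.765 TPM in control replicates 1, 2 and 3 (log2 change 0.56, SE 0.18). The secreted semaphorin SEMA3C was lower, at 68.7, 59.3 and 53.7 TPM in the BPA replicates, against 73.8, 72.0 and 74.1 TPM in the control replicates (log2 change -0.28, SE 0.11). Both lacked overlap, 1 of the 7 higher and 1 lower, against 5.38% and 3.98% of all tested genes. Of 8 committed preadipocyte genes 5 were tested and 5 lay above control, with a median of 0.61. Over all tested genes 56.6% lay above control and the median was 0.03. Of the 5, FABP4 and CD36 were higher without overlap, against 5.38% of all tested genes. Without BPA replicate 3, 2 of the 5 lay above and the median was -0.16, and without control replicate 1 the median was 0.23. FABP4, shared with the adipocyte list, had 124, 117 and 48.7 TPM in the BPA replicates, against 43.9, 43.2 and 30.5 TPM in the control replicates (log2 change 1.18, SE 0.39). The fatty acid transporter CD36 averaged 2.15 ± 0.88 TPM in BPA libraries and 0.756 ± 0.253 TPM in control libraries, without overlap (log2 change 0.81, SE 0.25). ICAM1, the marker that names these cells in mice, averaged 206 ± 71.3 TPM in BPA libraries and 186 ± 32.3 TPM in control libraries and overlapped. Of 5 genes of the F3-high regulatory population 2 were tested and 2 lay below control, as did 5325 of all 12277 tested genes. Of the 2, 1 was lower without overlap, against 3.98% of all tested genes. F3 (CD142) had 347, 311 and 292 TPM in the BPA replicates, against 438, 394 and 419 TPM in the control replicates, without overlap (log2 change -0.40, SE 0.10), and CLEC11A averaged 37.1 ± 6.70 TPM in BPA libraries and 40.5 ± 4.73 TPM in control libraries. Each of the genes named in these 3 populations had an adjusted p of at least 0.901 by limma.

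**Figure D5:**
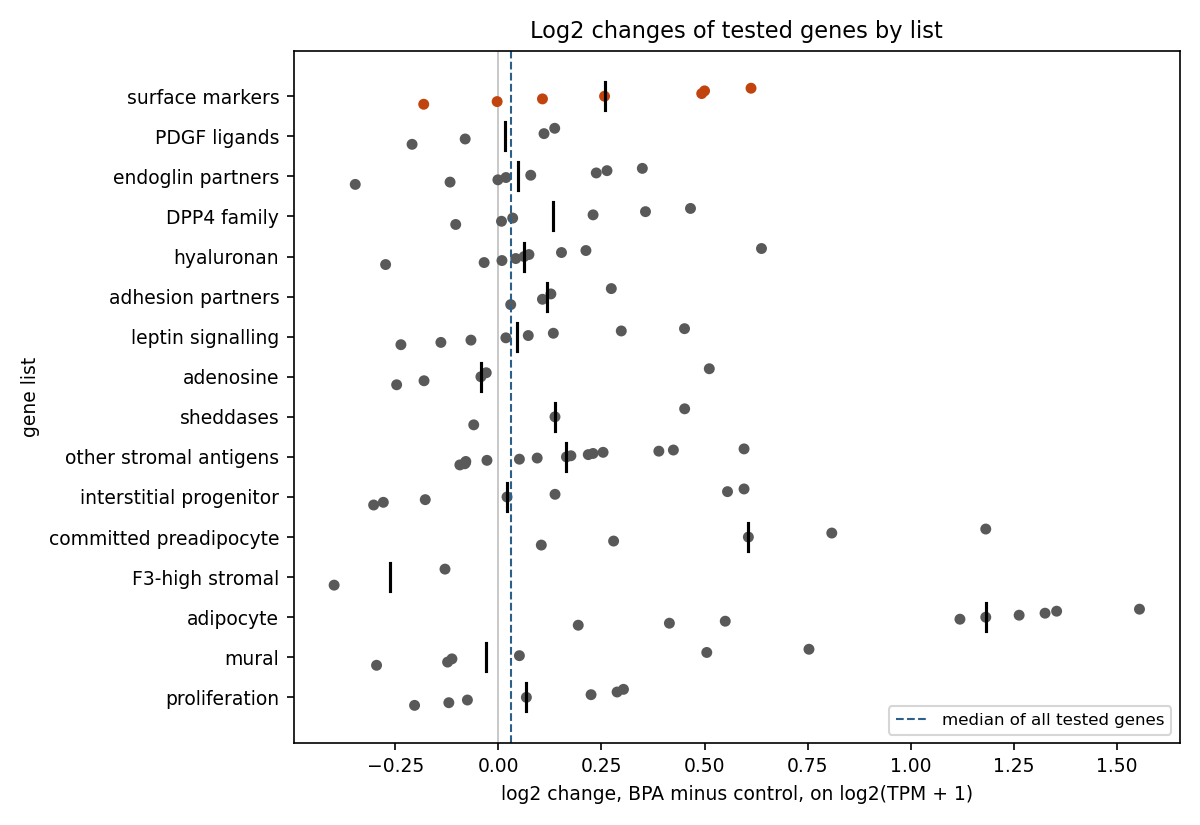
Log2 change of BPA minus control (horizontal axis, log2(TPM + 1) scale) of each tested gene (points) in 16 gene lists (rows), with the list median as a black line and the median of all tested genes, 0.03, as a dashed line. The 7 surface markers (red) had a median of 0.26, and adipocyte and committed preadipocyte genes, which share FABP4, medians of 1.18 and 0.61. Without BPA replicate 3 the medians of the surface markers and of the committed preadipocyte genes were -0.11 and -0.16.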

How the data were processed

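Messenger RNA of 6 libraries was measured, 3 with BPA and 3 control, grouped and numbered by the labels. Stranded mRNA libraries were prepared from column-purified RNA and sequenced on Illumina instruments, per the labels' protocols. The values deposited by the authors are log2 values in 1 table, named as normalized log TPM. Raising 2 to each value and subtracting 1 gave the same library total in all columns, so each is taken as log2(TPM + 1); the pseudocount is 1. The sources used here do not give the aligner, counting tool, build or annotation. TPM keeps no read depth, so no counting interval can be given, and low values are of unknown precision.

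Genes with a mean of at least 1 were tested with limma 3.58.1 in R 4.3.3 (empirical Bayes with a trend, two-sided, without covariates), with Benjamini-Hochberg adjustment over all 12277 and a threshold of 0.05. An exact permutation test of 3 against 3 libraries cannot go below 0.1 and was not used. Fold changes are on the log2(TPM + 1) scale, which understates changes of low genes. Named genes were all 10 markers and, per list, the 2 of smallest p and those without overlap; others were named after their values were seen. Members and lists were chosen with earlier results of these data known. The gene table of UU_Cfam_GSD_1.0 matched 22346 of the names. Alternatives covered the filter, pseudocount, scaling, model and each left-out library. The gene lists' counts and medians with a library left out were added after seeing the data.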

Additional observations from a re-analysis of the deposited data

How the results depend on the processing

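Under 19 alternatives, 0 of the 7 tested markers passed except with limma array weights, where 2 (PDGFRA, adjusted p = 0.0257, and ALCAM, adjusted p = 0.0302, both by limma and up to 0.9999 under the other alternatives) and 881 of all genes passed. That fit, by the gene-by-gene method since the default method did not converge, gave BPA replicate 2 a weight of 7.07 and BPA replicate 3 one of 0.115. Without the filter 6 genes passed, without BPA replicate 3 there was 1, and without both BPA replicate 3 and control replicate 2 there were 2; leaving out 1 library gave from 0 to 1. At an unadjusted p under 0.05 the count of markers was 2 in the main comparison, 1 after median centring or quantile normalization (2.51% and 2.70% of all tested genes), 4 with array weights (30.4% of all tested genes), and from 0 to 3 with 1 library left out (1.43% to 7.73%). With the replicate number as a block it was 1 (2.15%) and 0 passed adjustment. Libraries numbered 1 deviated together, but those numbered 2 and 3 did not (correlations of their deviations 0.718, -0.44 and -0.232 for numbers 1, 2 and 3). The highest such correlation, 0.787, was between BPA replicate 3 and control replicate 2. These correlations cannot settle whether the numbers mark pairs, since 79.8% of the variance lay on 1 component. The labels do not name pairs, so the numbers were not taken as pairs. Leaving out 1 library gave log2 changes from -0.11 to 1.20 for PDGFRB, -0.12 to 0.94 for ENG, -0.20 to 0.12 for CD44, -0.009 to 0.41 for HYAL2, -0.0304 to 0.23 for ITGB3 and -0.0031 to 0.46 for CD151. CD44 was 0.0003 at a pseudocount of 5. PDGFRA, ALCAM, DPP4 and LEPR kept their direction under every alternative run. The summed level of the 9 genes, a log2 difference of 0.40, was 0.15 without BPA replicate 3 and up to 0.55 with another library left out. These moves are under the SD of 0.35 between libraries, which includes BPA replicate 3. No scaling moved the median of all genes by over 0.1. The cause of these differences was not tested.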
